A study of Mus musculus with 6 samples.

Results

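Transcripts of 10 genes that restrain the cell cycle were followed in mouse liver with and without Hmgb2, the gene of a DNA-bending chromatin protein. They are 3 CIP/KIP inhibitors of cyclin-dependent kinases (CDKs), 4 INK4 inhibitors and 3 Gadd45 genes. They were chosen by gene symbol, with earlier results of these data known. Each of the 10 was read by 1 row of the array, among 19505 named genes in all. The livers came from 3 HMGB2-KO and 3 WT mice, all untreated as far as the labels go, all male, with C57BL/6 as the strain background and 8 weeks of age. The labels do not say where in Hmgb2 the deletion lies or whether it is limited to a cell type. The titles number the livers 1 to 3 in each genotype. The sample descriptions add an animal number, which is 39, 41 and 32 for HMGB2-KO livers 1 to 3 and 38, 40 and 31 for WT livers 1 to 3.

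CIP/KIP proteins bind whole cyclin-CDK complexes, mainly those of CDK2, whereas INK4 proteins bind CDK4 and CDK6 and keep them from D-type cyclins. Both keep the retinoblastoma protein active and cells in G1 or in rest. Gadd45 proteins are small stress-induced partners of other proteins, among them the kinase MTK1 upstream of p38 and JNK, the replication clamp PCNA, and CDK1 with cyclin B. Most hepatocytes of an adult liver are at rest, and after loss of liver tissue they divide while p21, the product of Cdkn1a, sets how fast.

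Each value is a log2 difference from a baseline that belongs to its row and is not stated, with the median of all rows taken off each array. Values of a gene can therefore be compared between livers, but no gene's abundance can be read, and no gene can be ranked against another. Whether a transcript lies above background, and whether liver markers are abundant as the tissue label implies, cannot be checked on this scale. In whole liver, fewer cells of a type and less RNA per cell cannot be told apart.

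Before centring, the array of WT liver 2 had a median of 0.26 over all rows, against -0.05 to 0.01 on the other 5. After centring, 162 of its 22206 rows lay more than 2 log2 below every other array, against 3 to 35 on the others. Hmgb2 was at -0.66, -0.33 and -0.43 in HMGB2-KO livers 1 to 3 and at 0.47, 0.36 and 0.42 in WT livers 1 to 3, so the genotypes did not overlap and each liver lay on the side of its label. Whether this row's probes lie in the deleted part is not stated, so it checks the labels only in part. Its difference of -0.89 (SE 0.13) had an adjusted p of 0.645 in limma.

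None of the 10 genes differed between HMGB2-KO and WT livers beyond the spread between livers. In limma, adjusted over all genes, 0 of 10 passed a threshold of 0.05, as did 0% of all genes, and their adjusted p-values lay between 0.994 and 0.999. At an unadjusted p under 0.05 the count was 0 of 10 against 3.68% of all genes. The genotypes overlapped for all 10, whereas they did not for 9.67% of all genes. The means of 8 genes were higher and those of 2 lower in HMGB2-KO, with a median difference of 0.20, against -0.00 over all genes. That median was 0.08 with the values as deposited, which lower every genotype difference by 0.12 log2, and 0.06 without WT liver 2. Mice in a group are separate animals by their numbers, and 3 per genotype limit the precision: the 95% confidence interval stayed within 1 log2 of 0, that is 2-fold, for 6 of the 10 genes and reached past it for 4.

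**Figure D1:**
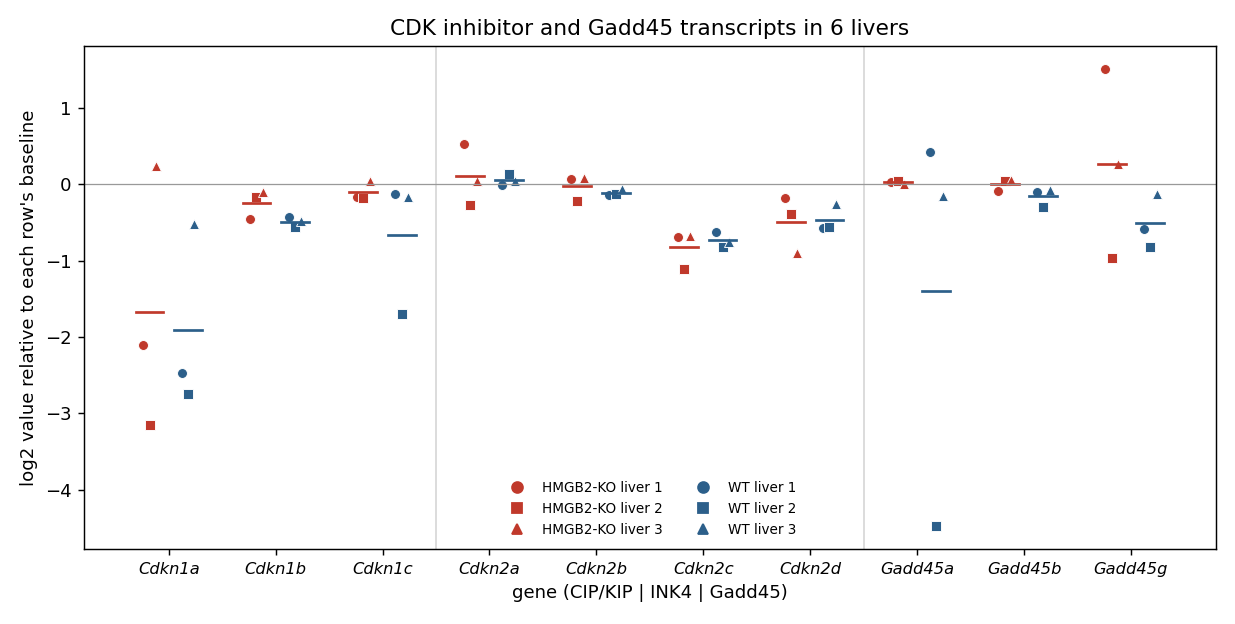
Log2 values relative to each row's baseline (vertical axis) of the 10 genes (horizontal axis) in 3 HMGB2-KO livers (left in each pair) and 3 WT livers (right). Points are livers, with the marker giving the liver number, and bars are means. Cdkn1a is high in both livers numbered 3, and Gadd45a and Cdkn1c are lowest in WT liver 2.

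The range over the 6 livers differed among the 10 genes. Cdkn1c, Gadd45g, Cdkn1a and Gadd45a had a range, highest minus lowest liver, of 1.74, 2.48, 3.40 and 4.90 log2. These 4 were above 1 log2, as were 10.7% of all genes. For Cdkn1c and Gadd45a the range came from WT liver 2. The other 5 livers lay between -0.17 and 0.04 for Cdkn1c and between -0.15 and 0.42 for Gadd45a. The other 6 ranged over 0.30 log2 (Cdkn2b) to 0.79 log2 (Cdkn2a), where the median of all genes was 0.52. The range of Gadd45a was reached by 41 genes of the 19505, itself included, and that of Cdkn1a by 96.

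**Figure D2:**
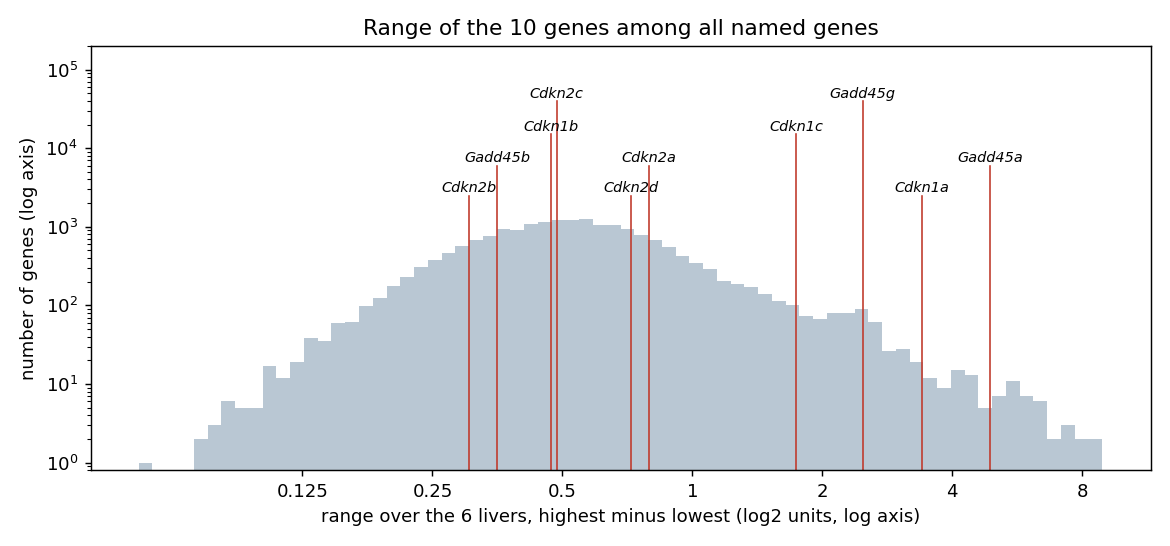
Histogram of the range over the 6 livers (horizontal axis, log2 units on a log axis) for 19505 genes (vertical axis, number of genes on a log axis), with red lines at the 10 genes. Cdkn1c, Gadd45g, Cdkn1a and Gadd45a stand in the right tail and the other 6 near the middle.

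Among the CIP/KIP genes, Cdkn1a encodes p21, the best known target of p53 among CDK inhibitors. It was at -2.11, -3.15 and 0.24 in HMGB2-KO livers 1 to 3 and at -2.47, -2.75 and -0.52 in WT livers 1 to 3. In each genotype the livers numbered 1 and 2 were low and the liver numbered 3 was high, so the genotypes overlapped and the liver numbers did not. The mean was -1.67 ± 1.74 in HMGB2-KO and -1.91 ± 1.21 in WT (SD, n = 3 each), a difference of 0.24 (SE 0.89, 95% confidence interval -1.84 to 2.32). Between livers of the same number, HMGB2-KO minus WT was 0.36 for number 1, -0.40 for number 2 and 0.77 for number 3. The genotype difference thus had no fixed sign. It was -0.59 with quantile normalization, -0.021 within animals 38 to 41, and between -0.72 and 0.98 with 1 liver left out. With the animal numbers as a term, 31 and 32 against 38 to 41, its SE was 0.30 and the adjusted p in limma was 0.951.

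The array row of Cdkn1a is annotated with both RefSeq transcripts of the gene, so its 2 starts cannot be told apart in these values. Both are shown because Cdkn1a carries the largest difference by liver number among the 10 genes, and the sequences are RefSeq's for GRCm38.p6, from 250 bases before to 50 after each start on the + strand. Capitals mark matches, on either strand, to a pair of p53 core letters (CATGNNNNNNCATG), a GC box (GGGCGG) and a TATA box (TATAA), none of which overlap here.
Cdkn1a upstream start, chr17:29090729-29091028: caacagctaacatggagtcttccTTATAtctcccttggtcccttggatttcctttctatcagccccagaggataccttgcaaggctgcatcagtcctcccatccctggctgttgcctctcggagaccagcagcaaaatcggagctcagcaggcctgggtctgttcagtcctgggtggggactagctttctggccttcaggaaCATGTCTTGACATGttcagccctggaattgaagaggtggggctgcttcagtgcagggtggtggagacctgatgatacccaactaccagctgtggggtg
Cdkn1a downstream start, chr17:29093519-29093818: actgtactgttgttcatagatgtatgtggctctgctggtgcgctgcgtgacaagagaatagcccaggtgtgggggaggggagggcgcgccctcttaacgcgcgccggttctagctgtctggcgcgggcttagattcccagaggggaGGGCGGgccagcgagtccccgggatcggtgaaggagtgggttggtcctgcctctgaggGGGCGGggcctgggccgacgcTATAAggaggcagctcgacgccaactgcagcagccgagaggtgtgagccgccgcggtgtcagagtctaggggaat
The upstream window holds the p53 pair, its first base at position -48 with the first transcribed base as 0, and a TATAA on the opposite strand at -227. The downstream window holds 2 GC boxes, at -104 and -46, and TATAA at -25. Of 32851 windows of this length over all genes, 0.712% hold the p53 pair, 35.7% a GC box and 24.9% TATAA on either strand. Neither window holds the E-box CACGTG or the nuclear receptor core AGGTCA, which 7.15% and 16.3% of windows hold. These are matches of letters and no measure of binding.

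Cdkn1b, whose product p27 is controlled largely by breakdown of the protein, was at -0.46, -0.17 and -0.09 in HMGB2-KO livers 1 to 3 and at -0.43, -0.57 and -0.48 in WT livers 1 to 3. HMGB2-KO livers 2 and 3 lay above all WT livers and HMGB2-KO liver 1 between them. Its mean was -0.24 ± 0.19 in HMGB2-KO and -0.49 ± 0.07 in WT (SD, n = 3 each). The difference of 0.25 (SE 0.14, 95% confidence interval -0.07 to 0.57) had the lowest unadjusted p of the 10 genes in limma, 0.108, at an adjusted p of 0.994. Cdkn1c, an imprinted gene expressed from the maternal copy whose product is p57, was at -0.17, -0.17 and 0.04 in HMGB2-KO livers 1 to 3 and at -0.12, -1.70 and -0.17 in WT livers 1 to 3. Only WT liver 2 was low, and the other 5 livers lay between -0.17 and 0.04. The difference of 0.56 (SE 0.39, 95% confidence interval -0.36 to 1.48) was 0.04 without WT liver 2.

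The 4 INK4 genes had ranges of 0.30 to 0.79 log2 over the livers, below the median of all genes for Cdkn2b and Cdkn2c and above it for Cdkn2a and Cdkn2d. Cdkn2a encodes both p16Ink4a, a CDK4 and CDK6 inhibitor, and p19Arf, which frees p53 by binding Mdm2. Its array row is annotated with both transcripts, so these cannot be separated. It was at 0.53, -0.26 and 0.05 in HMGB2-KO livers 1 to 3 and at -0.01, 0.13 and 0.04 in WT livers 1 to 3. The WT livers lay inside the span of the HMGB2-KO livers, and the difference was 0.05 (SE 0.20, 95% confidence interval -0.42 to 0.52), or -0.068 with the values as deposited. Cdkn2b, the neighbouring gene on chromosome 4 whose product p15 is induced by TGF-beta, was at 0.07, -0.22 and 0.08 in HMGB2-KO livers 1 to 3 and at -0.14, -0.13 and -0.06 in WT livers 1 to 3. HMGB2-KO livers 1 and 3 were above the WT livers and HMGB2-KO liver 2 was below them. The difference was 0.09 (SE 0.13, 95% confidence interval -0.22 to 0.39), or -0.033 with the values as deposited.

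Cdkn2c, which encodes p18, lay below its baseline in all 6 livers, at -0.69, -1.11 and -0.68 in HMGB2-KO livers 1 to 3 and at -0.62, -0.82 and -0.75 in WT livers 1 to 3. HMGB2-KO liver 2 was the lowest and the groups overlapped, with a difference of -0.10 (SE 0.15, 95% confidence interval -0.46 to 0.26). Cdkn2d, which encodes p19Ink4d, was also below its baseline throughout, at -0.17, -0.39 and -0.90 in HMGB2-KO livers 1 to 3 and at -0.57, -0.56 and -0.26 in WT livers 1 to 3. The liver numbered 3 was the lowest of the HMGB2-KO livers and the highest of the WT livers. Its difference was -0.02 (SE 0.20, 95% confidence interval -0.50 to 0.45), and the HMGB2-KO minus WT difference was 0.40, 0.16 and -0.64 for numbers 1, 2 and 3. The interaction of genotype and liver number, number 3 against 1 and 2, was -0.92. It rests on 1 liver numbered 3 in each genotype, so no p-value is given for it. For the 4 INK4 genes the median difference was 0.01 after centring and -0.11 before it.

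Of the Gadd45 genes, Gadd45a, a p53 target, was at 0.04, 0.05 and -0.00 in HMGB2-KO livers 1 to 3 and at 0.42, -4.47 and -0.15 in WT livers 1 to 3. A single liver set its range: WT liver 2 lay 4.32 log2 below the next lowest, and the other 5 spanned -0.15 to 0.42. The difference of 1.43 (SE 1.13, 95% confidence interval -1.19 to 4.05) was -0.11 without that liver. A gap of that size below the other 5 livers was shown by 29 genes on the same array. The 5 genes whose pattern over the 6 livers came nearest to Gadd45a were Gm11564, Poldip3, Kcnab2, Whrn and Cd200r2, at root mean square distances of 0.14 to 0.17 log2 after each gene's mean was taken off. All 5 had their low value on that array, between -4.72 and -4.12, and lay between -0.06 and 0.47 elsewhere. They were picked for this likeness, so their low value on that array follows from the choice. The part of this array in the value of Gadd45a was not tested beyond leaving it out.

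Gadd45b, which TGF-beta, NF-kB signalling and the nuclear receptor CAR induce in liver, was at -0.09, 0.04 and 0.05 in HMGB2-KO livers 1 to 3 and at -0.10, -0.30 and -0.07 in WT livers 1 to 3. HMGB2-KO livers 2 and 3 lay above all WT livers, and HMGB2-KO liver 1 was level with WT livers 1 and 3. The difference was 0.16 (SE 0.12, 95% confidence interval -0.13 to 0.45). Gadd45g, the third of the family, was at 1.51, -0.97 and 0.27 in HMGB2-KO livers 1 to 3 and at -0.59, -0.83 and -0.13 in WT livers 1 to 3. HMGB2-KO liver 1 was the highest and HMGB2-KO liver 2 the lowest of all 6, so the HMGB2-KO livers enclosed the WT livers. The mean was 0.27 ± 1.24 in HMGB2-KO and -0.51 ± 0.36 in WT (SD, n = 3 each), a difference of 0.78 (SE 0.55, 95% confidence interval -0.50 to 2.07) that was 0.16 without HMGB2-KO liver 1 and 1.40 without HMGB2-KO liver 2. Only 1.35% of all genes had so wide a range.

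The start of Gadd45g is shown beside those of Cdkn1a because both genes vary widely between livers without the low value of WT liver 2. Capitals mark the E-box CACGTG, at position -142, and TATAA, at -27, the only matches among the letters searched (RefSeq, GRCm38.p6, + strand).
Gadd45g start, chr13:51846425-51846724: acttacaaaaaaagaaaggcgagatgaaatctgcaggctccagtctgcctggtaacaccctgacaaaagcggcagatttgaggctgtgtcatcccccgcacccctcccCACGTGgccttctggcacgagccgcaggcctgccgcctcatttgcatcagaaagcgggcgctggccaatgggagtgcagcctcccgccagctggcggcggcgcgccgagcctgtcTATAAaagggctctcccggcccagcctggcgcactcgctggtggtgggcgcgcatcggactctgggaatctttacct
Of the 10 genes, 9 had at least 1 window in the RefSeq table, 12 windows in all. The E-box stood in 1 of the 2 windows of Cdkn2c and in those of Gadd45b and Gadd45g, against 7.15% of all windows. The p53 pair stood only in 1 of the 2 windows of Cdkn1a, against 0.712% of all windows.

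The second comparison set the 2 livers numbered 3 against the 4 numbered 1 and 2, with genotype as a term. The labels do not say what the numbers stand for; those numbered 3 have animal numbers 31 and 32 and the others 38 to 41. Cdkn1a stood apart in it: it averaged -0.14 ± 0.54 in livers 3 (SD, n = 2) and -2.62 ± 0.44 in livers 1 and 2 (SD, n = 4). The difference of 2.48 (SE 0.32, 95% confidence interval 1.72 to 3.24), 5.58-fold, was exceeded in size by 11 of the other genes. It ranked 31 of 19505 by p but did not pass, with an adjusted p of 0.0844 in limma. Permuting the livers gave an exact two-sided p of 0.0667, and no split of 6 livers into 2 and 4 can go lower. Within HMGB2-KO livers the difference was 2.87 and within WT livers 2.09, so it had the same sign in both.

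Cdkn1a was the only one of the 10 genes whose livers 3 did not overlap livers 1 and 2, where 19.7% of all genes did not overlap, and the only one at an unadjusted p under 0.05, against 8.49% of all genes. After adjustment 0 of 10 passed, against 0.041% of all genes, which is 8 genes. The other 9 had differences between -0.15 (Cdkn2d) and 0.92 (Gadd45a, -0.27 without WT liver 2), with adjusted p-values between 0.791 and 0.965 in limma. The adjusted p of Cdkn1a ranged from 0.0258, with livers 1 alone as the comparison, to 0.425, without HMGB2-KO liver 3. It was also under 0.05 without HMGB2-KO liver 2, at 0.0429, and its difference lay between 2.09 and 2.87 in all of these settings.

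**Figure D3:**
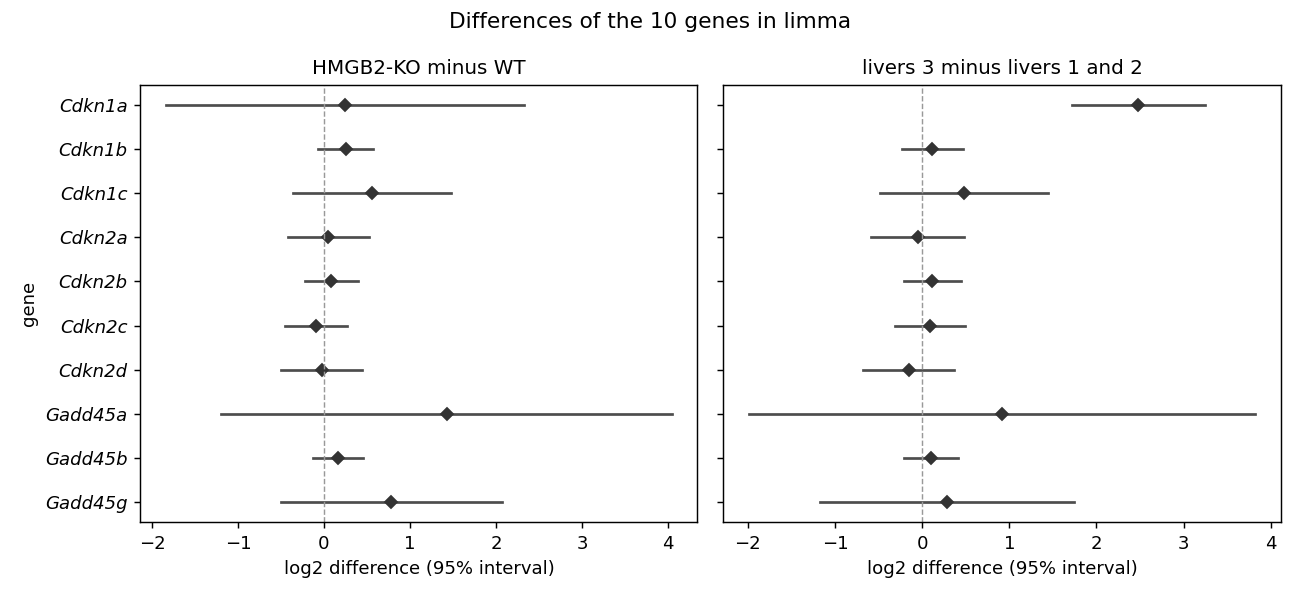
Log2 differences (horizontal axes) with 95% confidence intervals from limma for the 10 genes (vertical axis), HMGB2-KO minus WT on the left and livers 3 minus livers 1 and 2 on the right. All 10 intervals on the left hold 0, and on the right that of Cdkn1a alone does not.

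The genes nearest to Cdkn1a over the 6 livers were Grk5, Arntl, Tsc22d1, Lgalsl and Chka, at root mean square distances of 0.27 to 0.46 log2, where Cdkn1a itself varied with a standard deviation of 1.23 around its mean. They were picked for this likeness, so their liver-number differences of 1.80 to 2.21 follow from the choice. In Cdkn1a and in all 5 the livers numbered 2 were the lowest, those numbered 1 next and those numbered 3 the highest. The choice by likeness favours this shared order too. Arntl, which encodes the clock activator BMAL1, was at -1.03, -1.98 and 0.72 in HMGB2-KO livers 1 to 3 and at -0.99, -1.71 and 0.62 in WT livers 1 to 3. Its liver-number difference of 2.10 (SE 0.31) did not pass (adjusted p = 0.109 in limma).

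Among 18 measured genes of the core clock, 3 passed the adjusted threshold in livers 3 against livers 1 and 2, 1 higher and 2 lower. The share over all genes was 0.041%. At an unadjusted p under 0.05 stood 5 higher and 7 lower, against 8.49% of all genes. Nr1d1, which encodes the clock repressor REV-ERB-alpha, fell to -1.52 in HMGB2-KO and -1.57 in WT livers 3, against 2.88 and 2.91 in HMGB2-KO and 3.27 and 3.03 in WT livers 1 and 2 (difference -4.56, SE 0.14, adjusted p = 0.000271 in limma). Npas2, which encodes a partner of BMAL1, rose by 1.82 (SE 0.13, adjusted p = 0.0109 in limma). The third, Nr1d2, encodes REV-ERB-beta and was named after its values were seen, with a difference of -2.41 (SE 0.22, adjusted p = 0.0384 in limma). Nr1d1 stayed under the threshold with any 1 liver left out. Npas2 did not without HMGB2-KO liver 1, 2 or 3 or WT liver 3 (adjusted p = 0.0559 to 0.185 in limma), nor Nr1d2 without any liver but WT liver 1 (adjusted p = 0.0875 to 0.203). The same 18 genes had 0 calls between genotypes, and their median difference was 0.10 after centring and -0.02 on the uncentred values. These clock genes differed between the same livers as Cdkn1a, and their part in its difference was not tested.

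**Figure D4:**
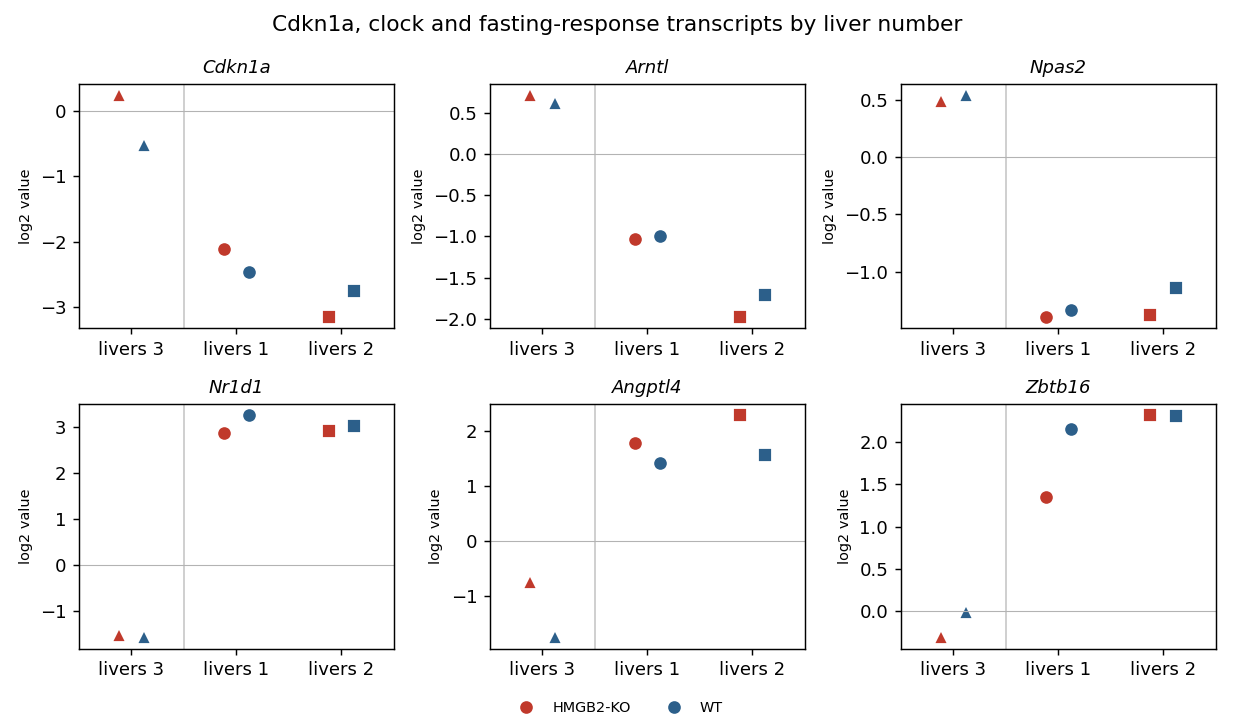
Log2 values (vertical axes) of Cdkn1a, 3 clock genes and 2 genes of the fasting and glucocorticoid response by liver number (horizontal axes), with HMGB2-KO and WT livers as points. Cdkn1a, Arntl and Npas2 are high in livers 3, and Nr1d1, Angptl4 and Zbtb16 are low there, in both genotypes.

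Of the genes of the fasting and glucocorticoid response, 1 passed by liver number. Among the 16 measured, 14 had lower and 2 higher means in livers 3, with a median difference of -1.09, against -0.00 over all genes, and 9 of the lower and 1 of the higher had an unadjusted p under 0.05, against 8.49% of all genes. Livers 3 overlapped livers 1 and 2 for Tsc22d3, Sgk1, G6pc, Ppargc1a, Irs2 and Tat, which were named after their values were seen. Angptl4, a fasting-induced inhibitor of lipoprotein lipase, fell to -0.75 and -1.76 in HMGB2-KO and WT livers 3, against 1.42 to 2.29 in livers 1 and 2 (difference -3.02, SE 0.19, adjusted p = 0.00775 in limma). It missed the threshold without HMGB2-KO liver 3 or WT liver 3, at adjusted p = 0.110 in each. Zbtb16, a glucocorticoid-induced transcription factor gene, had a difference of -2.19 (SE 0.26) that did not pass (adjusted p = 0.0830 in limma). Between genotypes, 13 of the 16 had higher and 3 lower means in HMGB2-KO, with a median of 0.39 that was -0.15 without WT liver 3. None of the 16 passed, and Irs2, an insulin receptor substrate gene, had the smallest p of the list with a difference of 0.46 (SE 0.16, adjusted p = 0.994 in limma). The part of this response in the difference of Cdkn1a was not tested either.

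Of 24 listed genes of p53 and its targets, 22 were measured, without Trp53 itself and Bax, and 0 passed in either comparison. In livers 3 against livers 1 and 2, 14 had higher and 8 lower means, and the list's median was 0.07 after centring and -0.02 on the uncentred values. At an unadjusted p under 0.05 stood 3 of the 22, all lower, against 8.49% of all genes. They were Plk3, a stress-responsive kinase gene, at -0.86 (SE 0.18, adjusted p = 0.236 in limma), Trp53inp1, which promotes p53-dependent cell death, at -1.03 (SE 0.38, adjusted p = 0.527), and Sesn2, a stress-induced inhibitor of mTORC1 named after its values were seen, at -0.37 (SE 0.15, adjusted p = 0.580). The value of Trp53inp1 rested on 1 liver: it was at 1.06, 0.84 and 0.83 in HMGB2-KO livers 1 to 3 and at 1.13, 1.31 and -0.73 in WT livers 1 to 3, and its difference was -0.12 without WT liver 3 and -1.95 without HMGB2-KO liver 3. That of Sesn2 was -0.24 without WT liver 3. Between genotypes, 10 had higher and 12 lower means, with a median of -0.02. On the uncentred values 4 were higher and the median was -0.14, and with quantile normalization 11 were higher and it was 0.00. Pmaip1, which encodes the cell death protein Noxa, was at -0.39 (SE 0.16) and Ddb2, a gene of ultraviolet damage recognition, at 0.31 (SE 0.13), each with an adjusted p of 0.994 in limma.

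Cell cycle genes around the inhibitors, not all of them direct targets, did not pass in either comparison. Of 18 listed genes, namely cyclins, CDKs and pocket proteins with Cdc25a, 16 were measured, without Ccnd1 and Ccnb1. In HMGB2-KO 12 had higher and 4 lower means, with a median of 0.13. That median was 0.01 with the values as deposited and 0.00 without WT liver 2. In livers 3 against livers 1 and 2, 14 of the 16 were higher in mean, with a median of 0.20. That median is after centring, and the values as deposited lower every liver-number difference (that of Npas2 from 1.82 to 1.73). WT liver 2, among livers 1 and 2, had the lowest list median, -0.50, against -0.37 to 0.01 in the other livers. By liver number only 1 of the 16 had an unadjusted p under 0.05, against 8.49% of all genes. It was Cdk4, a kinase bound by the INK4 proteins, with a difference of 0.38 (SE 0.15, adjusted p = 0.574 in limma). Of 9 measured genes for the breakdown of inhibitor proteins, 0 passed in either comparison. Their median was 0.02 between genotypes, or -0.10 on the uncentred values. By liver number it was 0.19 after centring, where 8 were higher and 1 lower in mean. The list median of these genes was again lowest in WT liver 2, at -0.21. At an unadjusted p under 0.05 stood 1 of the 9 between genotypes and 0 by liver number, against 3.68% and 8.49% of all genes. That 1 was Rnf123, which encodes a ubiquitin ligase subunit for p27, at 0.39 (SE 0.15, adjusted p = 0.994 in limma) between genotypes.

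Upstream regulators, Gadd45 partners and kinases of p38 and JNK signalling gave the same result. Past the threshold stood 0 of 22 transcriptional regulators and 0 of 9 partners and kinases in either comparison. Between genotypes the medians were 0.00 and -0.03, against -0.00 over all genes. On the uncentred values these were -0.11 and -0.15. In livers 3 against livers 1 and 2, the means of 11 regulators were higher and those of 11 lower, with a median of -0.01, and the 5 at an unadjusted p under 0.05, against 8.49% of all genes, were all lower. Cebpb, a factor that promotes liver regeneration, was at -0.81 (SE 0.17) and Foxo3, an activator of Cdkn1a and Cdkn1b in resting cells, at -0.58 (SE 0.16), with adjusted p-values of 0.245 and 0.404 in limma. Of the kinases of p38 and JNK signalling, the JNK gene Mapk9 was at 0.39 (SE 0.13) and the stress kinase gene Map3k5 at -0.995 (SE 0.26). Their adjusted p-values were 0.492 and 0.372 in limma.

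Of 10 measured imprinted growth genes, the group to which Cdkn1c belongs, 0 passed in either comparison. At an unadjusted p under 0.05 stood 2 between genotypes, both higher, against 3.68% of all genes. By liver number 2 higher and 1 lower stood there, against 8.49% of all genes. Mest was at 0.48 (SE 0.18) and Grb10, an inhibitor of insulin signalling, at 0.36 (SE 0.15) between genotypes, each with an adjusted p of 0.994 in limma. Phlda2, a neighbour of Cdkn1c in the same imprinted cluster, was at 0.87 (SE 0.17, adjusted p = 0.217 in limma) in livers 3 against livers 1 and 2. Mest was at 0.39 (SE 0.13, adjusted p = 0.486 in limma) in that comparison. Cdkn1c itself was at 0.48 (SE 0.40), or 0.10 without WT liver 2. Of 15 genes of the stress kinase and ER stress response, among them several that are induced together with Gadd45 genes in other settings, 0 passed in either comparison; 0 between genotypes and 7 by liver number, 6 of them lower, had an unadjusted p under 0.05, against 3.68% and 8.49% of all genes. By liver number 7 had higher and 8 lower means, with a median of -0.18. The immediate-early gene Egr1 was at -2.01 (SE 0.44, adjusted p = 0.272 in limma), or -1.10 without WT liver 3, and Trib3 at -0.58 (SE 0.14, adjusted p = 0.314) in livers 3 against livers 1 and 2.

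Among 52 measured markers of liver cell types, none passed the adjusted threshold in limma in either comparison. Between genotypes, 9 of 9 Kupffer cell and macrophage markers had higher means in HMGB2-KO, with list medians by liver of 0.51, 0.22 and 0.60 in HMGB2-KO and 0.25, 0.30 and 0.40 in WT. Of 7 cholangiocyte markers, 5 had lower means, with list medians of -0.14, -0.10 and -0.14 in HMGB2-KO and 0.14, 0.01 and 0.06 in WT. The 10 hepatocyte markers had list medians of 0.06, 0.03 and 0.04 in HMGB2-KO and 0.03, -0.16 and 0.02 in WT, lowest in WT liver 2. Markers of endothelial cells (6 of 8), stellate cells and fibroblasts (6 of 9) and lymphocytes (5 of 7) had mostly higher means in HMGB2-KO. Their medians were 0.11, 0.04 and 0.12, and both measured erythrocyte markers had lower means. All these genotype counts and medians are after centring. The values as deposited lower every genotype difference by 0.12 log2, no less than the medians of 0.11, 0.04 and 0.12. Of the Kupffer cell markers, Adgre1 at 0.08 and Marco at 0.09 also lay under that shift, so their 9 of 9 depends on the centring. In livers 3 against livers 1 and 2, 9 of 9 Kupffer cell markers had higher means, with a median of 0.12. The other lists had medians between -0.09 and 0.13. These are after centring too. The values as deposited lower every liver-number difference by the same amount, that of Npas2 from 1.82 to 1.73. Clec4f, Csf1r and Marco, at 0.03, 0.04 and 0.07, lay under that shift, so this 9 of 9 depends on the centring. At an unadjusted p under 0.05 stood 3 markers between genotypes and 4 by liver number, where all genes gave 3.68% and 8.49%. The part of these cell types in the values of the 10 genes was not tested.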

How the data were processed

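The labels name total RNA from livers of HMGB2-KO and WT mice, extracted with Trizol, biotin-labelled as cDNA and hybridised to Clariom S mouse arrays. The deposited values are taken here as log2, on a scale of differences from an unstated row baseline; the base, summarization, normalization and genome build are not stated in the sources used. All 6 columns were used. The platform annotation names 19572 of 22206 rows with 1 symbol, 0 with several and leaves 2634 unnamed, and all named rows matched RefSeq by gene identifier. Where rows shared a symbol (55 genes) only that of highest mean entered, and arrays were centred on their medians. Tests used limma 3.58.1 in R 4.3.3 (lmFit, eBayes, two-sided), with Benjamini-Hochberg adjustment over 19505 genes and a threshold of 0.05, for genotype alone and for liver number with genotype as a term. The calculation was tested on simulated data. Depth has no meaning for arrays, and their number limits the precision. Alternatives were the values as deposited, quantile normalization, array weights, robust moderation, row means, a replicate block, an animal term and leaving out livers.

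The members, lists, comparisons and tests were chosen with earlier results of these data known. The text names all 10 genes and Hmgb2, from each pathway list up to 2 genes per comparison with the smallest p under 0.05, and the 5 genes nearest in pattern to the 2 members of widest range; Nr1d2, Sesn2 and 5 further fasting genes were named after their values were seen. Promoter windows are RefSeq's. The array names no coordinates, so those given belong to the windows alone.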

Additional observations from a re-analysis of the deposited data

Results flagged for a closer look

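Values of the 10 genes were examined for a liver far from the other 3 among the 4 numbered 1 and 2, by Dixon's criterion at 95%, which chance passes in about 1 of 20 groups. For 3 of the 10 genes a liver was that far away, where 6.62% of all genes had such a liver. Gadd45a was at -4.47 in WT liver 2, with the nearest of the other 3 at 0.04. Cdkn1c was at -1.70 in the same liver, with the nearest at -0.17. On that array 202 genes lay more than 1 log2 below every other liver, against 38 to 53 on the others. Gadd45g was at 1.51 in HMGB2-KO liver 1, with the nearest at -0.59.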

How the results depend on the processing

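Between genotypes 0 genes passed under every alternative, the replicate block (liver number) included, which left all 10 genes uncalled; the smallest adjusted p over all genes in limma was 0.350 as reported and 0.0664 to 0.926 over all alternatives, both ends with 1 liver left out, while 601 to 946 genes had an unadjusted p under 0.05. Deviations of same-numbered livers correlated at 0.04, 0.13 and 0.29 across genes for numbers 1 to 3, so the numbers were not taken as pairs, and HMGB2-KO liver 1 was nearer to WT liver 2 (0.10). Of 154 genotype differences recomputed for these genes and Hmgb2, 13 changed sign, none of them called, and the cause was not tested. With the values as deposited Cdkn2a was at -0.068 and Cdkn2b at -0.033. With quantile normalization Cdkn1a was at -0.59. Within animals 38 to 41 Cdkn1a was at -0.021 and Cdkn2d at 0.28. With 1 liver left out Cdkn1a ranged from -0.72 to 0.98, Cdkn2a from -0.16 to 0.23, Cdkn2c from -0.17 to 0.043, Cdkn2d from -0.18 to 0.18 and Gadd45a from -0.11 to 2.34.

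For livers 3 against livers 1 and 2, 8 genes passed, against 22 with quantile normalization, 22 with array weights, 26 with robust moderation, 16 without the genotype term, 25 with livers 1 alone as the comparison, 2 with livers 2 alone, and 1 to 12 with 1 liver left out (1 without HMGB2-KO or WT liver 3, 3 without HMGB2-KO liver 1, 12 without WT liver 1). A lone liver 3 was then assumed to vary like the others. Of 154 differences 15 changed sign, none of them that of Cdkn1a. Of the 14 alternatives, chosen for these genes after the data were seen, Nr1d1 passed in 14, Angptl4 in 11, Npas2 in 8 and Nr1d2 in 6. Hmgb2 was at -0.057 as deposited. With livers 1 alone Cdkn2c was at -0.058, Gadd45a at -0.31 and Gadd45g at -0.39, and with livers 2 alone Cdkn2a was at 0.11 and Hmgb2 at -0.023. With 1 liver left out Cdkn2a ranged from -0.22 to 0.12, Cdkn2c from -0.033 to 0.22, Cdkn2d from -0.61 to 0.30, Gadd45a from -0.27 to 1.87, Gadd45g from -0.20 to 0.86 and Hmgb2 from -0.042 to 0.10. Whether dim rows drive any value cannot be told, since no level was used here.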
